A study of Mus musculus with 6 samples.

Results

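The PYHIN cluster of mouse chromosome 1 is a run of related interferon-inducible genes, and 10 of its genes are described here: Ifi208, Ifi203, Ifi204, Ifi206, Ifi207, Ifi209, Ifi213, Ifi214, Mndal and Aim2. They were found by their symbols, and all 10 were among the 15319 genes of the table and had at least 1 count. Ifi208 was selected on its measured difference between the groups compared below, so its values are given as a description without a test. The other 9 were taken for belonging to the same family and locus. RNA-Seq was performed on tumor-infiltrating Tregs of 2 groups of mice with 3 libraries each. WT mice were Foxp3Yfp-Cre, and cKO mice were Xrcc6flox/floxFoxp3Yfp-Cre, so both groups carried the YFP-Cre allele at Foxp3, and the cKO mice alone carried the floxed gene for Ku70. In both groups, LLC cells, a mouse lung carcinoma line, were injected through the tail vein at 8 to 10 weeks of age, and the tumors were taken at 21 days. Cre was driven by Foxp3, so deletion was directed to cells that express Foxp3, and deletion in other cells was not measured in these libraries. The number and sex of the mice behind each library were not given in the sources used here, and p-values measure only the spread between these libraries.

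PYHIN proteins are named for a PYRIN domain, through which they assemble with other proteins, and a HIN domain, through which many of them bind DNA. AIM2 binds double-stranded DNA in the cytosol and recruits the adaptor ASC and caspase-1 into an inflammasome. Most genes of the family are switched on by type I interferon, which acts through ISGF3 and other interferon regulatory factors on the interferon-stimulated response element (ISRE) of a promoter. Ku70, the product of Xrcc6, binds DNA ends in double-strand break repair and is also described as a sensor of DNA in the cytosol.

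Ifi208 lies on chromosome 1 (GRCm38, chr1:173673675-173698395, + strand), and the 10 genes span 591.8 kb (chr1:173350879-173942672). The RefSeq promoter table of GRCm38.p6, which gives 300 bases around each start site, held 9 of the 10 genes. Ifi204 had no entry. In 7 of these 9 genes (Ifi203, Ifi206, Ifi207, Ifi208, Ifi213, Ifi214 and Mndal) a promoter held the ISRE core, searched on both strands as GAAA followed by any 2 bases and another GAAA, and in all 7 it read GAAATCGAAA. The second promoter entry of Mndal also held it as GAAAGAGAAA. This core was present in 3.44% of all 32851 promoters in the table. The 10 letters GAAATCGAAA were present in 16 of 27025 genes, or 0.0592%, and 7 of these 16 were the genes named above. The letters were read from the Ifi208 promoter itself, and several of the 7 promoters were nearly identical, so no enrichment was tested. The gamma-activated sequence, searched as TTCNNNGAA, was not found in the promoters of the 9 genes and was present in 8.3% of all promoters. Matches were counted whether or not they overlapped another motif.

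The promoters of Ifi208, Ifi206 and Ifi213 were nearly identical, and they are shown whole because these 3 genes differed in their measured levels. The Ifi208 promoter matched that of Ifi213 at 282 of 285 aligned positions (98.9%) and that of Ifi206 at 279 of 282 (98.9%). Counting from 1 at the 5′ end of the Ifi208 promoter, the differences from Ifi213 were A151T, G162A and T275A, and those from Ifi206 were C183T, T275A and 1 inserted base. None of these positions lay in the core, which is in capitals. The core began 58 bases before the annotated start site in Ifi208, 40 before it in Ifi206 and 73 before it in Ifi213.
Ifi208, chr1:173673415-173673714, + strand: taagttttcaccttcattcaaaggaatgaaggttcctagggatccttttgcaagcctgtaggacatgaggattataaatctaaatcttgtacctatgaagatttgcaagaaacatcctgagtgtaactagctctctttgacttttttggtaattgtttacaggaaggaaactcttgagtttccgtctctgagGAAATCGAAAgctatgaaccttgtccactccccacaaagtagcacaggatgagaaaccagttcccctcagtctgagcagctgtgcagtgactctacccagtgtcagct
Ifi206, chr1:173491269-173491568, - strand: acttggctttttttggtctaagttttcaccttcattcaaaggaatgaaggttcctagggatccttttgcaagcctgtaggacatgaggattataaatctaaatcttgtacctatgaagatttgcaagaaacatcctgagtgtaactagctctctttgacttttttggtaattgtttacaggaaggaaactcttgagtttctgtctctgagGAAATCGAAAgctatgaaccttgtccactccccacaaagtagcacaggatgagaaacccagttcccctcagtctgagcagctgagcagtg
Ifi213, chr1:173599223-173599522, - strand: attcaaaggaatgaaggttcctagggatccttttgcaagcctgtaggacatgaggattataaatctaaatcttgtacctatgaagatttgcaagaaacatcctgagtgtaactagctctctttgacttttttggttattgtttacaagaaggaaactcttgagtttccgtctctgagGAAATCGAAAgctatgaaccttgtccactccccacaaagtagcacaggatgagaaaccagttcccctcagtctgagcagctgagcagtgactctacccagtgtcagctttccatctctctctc

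The other promoters are shown as 80 bases around the core, or around the closest stretch to it, again in capitals. Ifi209 and Ifi214 matched at 287 of 300 aligned positions (95.7%), and 1 of the differences, G172T when read from Ifi214 to Ifi209, changed the first letter of the core, so that Ifi209 read TAAATCGAAA at the same place. The second promoter entry of Ifi203 and the first of Mndal matched at 282 of 299 positions (94.3%), and their 80 bases around the core were the same. In Aim2, the closest stretch differed from the core of Ifi208 at 4 of its 10 letters, and none of its 300 bases held the ISRE core.
Ifi214, chr1:173535992-173536071, - strand: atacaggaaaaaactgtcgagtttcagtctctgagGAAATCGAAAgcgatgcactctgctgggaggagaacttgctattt
Ifi209, chr1:173630745-173630824, + strand: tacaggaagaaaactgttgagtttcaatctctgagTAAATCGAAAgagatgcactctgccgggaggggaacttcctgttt
Ifi203, chr1:173942483-173942562, - strand: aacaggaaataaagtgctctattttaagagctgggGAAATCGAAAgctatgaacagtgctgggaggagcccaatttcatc
Mndal, chr1:173880179-173880258, - strand: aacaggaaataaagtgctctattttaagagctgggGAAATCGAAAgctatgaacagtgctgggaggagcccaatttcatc
Ifi207, chr1:173741806-173741885, - strand: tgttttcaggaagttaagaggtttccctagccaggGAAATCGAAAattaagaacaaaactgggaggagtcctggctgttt

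The deposited values were estimated counts per gene, with totals of 19032620 to 23159815 per library. They were rounded, scaled to CPM (counts per 1000000 of the TMM-scaled library total) and compared with edgeR's quasi-likelihood test. Where a gene had 0 counts, a level up to that of 3 counts, 0.133 to 0.156 CPM, remained possible by counting error alone. WT replicate 2 stood apart from the other libraries, with 11513 genes detected against 14442 to 14737, so the fitted fold change of each gene of the cluster and the median of each gene list are also given without it. Xrcc6 CPM were 20.9, 63.1 and 23.8 for WT and 5.24, 3.51 and 4.18 for cKO (replicates 1, 2 and 3 in each list of values, here and below), lower in all 3 cKO libraries than in any WT library. All 9 Treg markers were detected in every library, and their summed level was 6661 to 9551 CPM. Over all 15315 genes tested, none passed an adjusted p of 0.05 with edgeR, while 144 higher and 133 lower genes had an unadjusted p under 0.05. DESeq2 called 2.

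Ifi208, also named Pydc3 for its pyrin domain, was higher in cKO Tregs. Its level was 23.9, 18.8 and 13.1 CPM in WT replicates 1, 2 and 3 and 64.5, 42.6 and 62.2 CPM in cKO replicates 1, 2 and 3. The lowest cKO library was above the highest WT library. The group means were 18.6 ± 5.41 CPM (SD, n = 3) in WT and 56.4 ± 12.02 CPM (SD, n = 3) in cKO, a ratio of 3.03. The fitted log2 fold change was 1.60 (SE 0.27) with all 6 libraries and 1.60 without WT replicate 2. Under all 13 alternative settings it was 1.40 to 1.82. Because this difference was the reason for describing the gene, no p-value is given. In bulk RNA, a larger number of cells that express a gene and a higher level per cell cannot be told apart.

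The next genes are those with the closest promoters. Ifi213, also named Pydc4 for its pyrin domain, was at 59.2, 55.0 and 62.2 CPM in WT and at 65.3, 72.0 and 82.1 CPM in cKO. Its groups did not overlap, but the gap between the highest WT and the lowest cKO library was small. The log2 fold change was 0.32 (SE 0.14, 95% interval -0.02 to 0.65), and the adjusted p was 0.984 (edgeR). Without WT replicate 2 it was 0.27. Ifi206 was at 85.4, 136 and 81.0 CPM in WT and at 93.0, 112 and 125 CPM in cKO. WT replicate 2 was the highest of the 6 libraries, and the other WT libraries were below all 3 cKO libraries. The log2 fold change of Ifi206 was 0.13 (SE 0.23, 95% interval -0.41 to 0.67) with all libraries and 0.40 without WT replicate 2. The adjusted p from edgeR was 0.984 with that library and 0.997 without it.

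The share of Ifi208 in the summed level of these 3 genes was 14.2%, 8.98% and 8.37% in the WT libraries and 28.95%, 18.8% and 23.1% in the cKO libraries. The sum of Ifi206 and Ifi213 without Ifi208 was 159 ± 27.0 CPM (SD, n = 3) in WT and 183 ± 24.6 CPM (SD, n = 3) in cKO. These groups overlapped through WT replicate 2 alone, at 191 CPM, and the log2 ratio of the means was 0.20 with it and 0.35 without it. Thus, the fitted log2 fold changes of these genes with nearly the same promoter sequence were 1.60 for Ifi208, 0.32 for Ifi213 and 0.13 for Ifi206, and the difference among them was not tested because Ifi208 was selected on its value. Few 150-base windows of their transcripts were shared exactly. For Ifi208, 1.5% of the windows were also present in another gene, 1.21% in Ifi206 and 0.288% in Ifi213. For Ifi206 this share was 5.79%, of which 3.65% was shared with the annotated gene Gm18752, and for Ifi213 it was 0.223%. Stretches that differ by a few bases were not counted. The deposited counts of these 3 genes were not whole in all 6 libraries, and the part of their reads divided between genes was not measured.

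**Figure D1:**
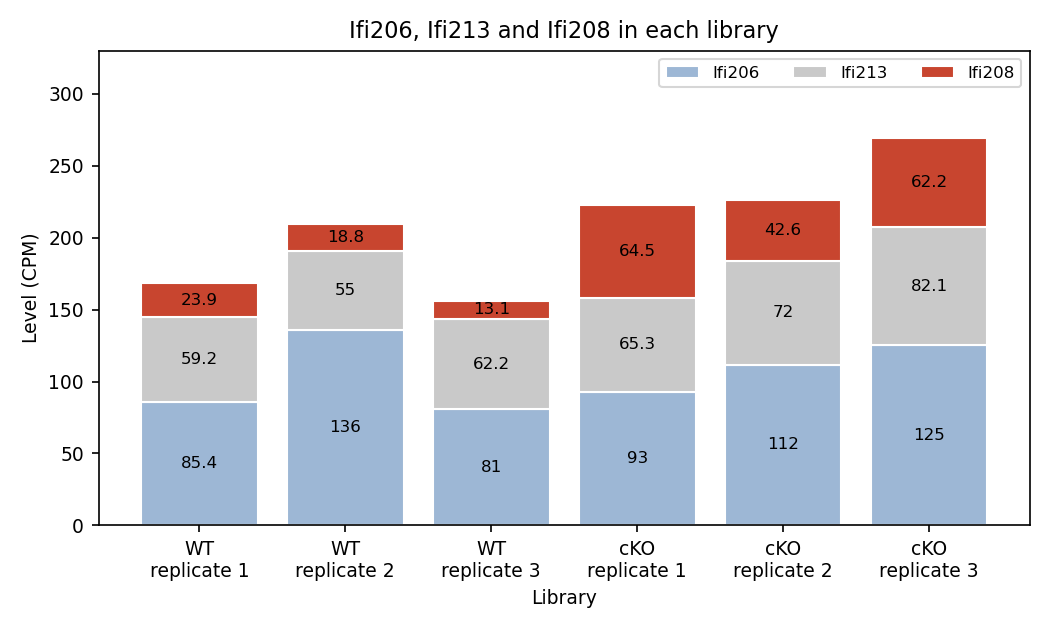
Stacked bars give the CPM of Ifi206, Ifi213 and Ifi208 in each of the 6 libraries, with each value printed in its segment. The Ifi208 segment is 13.1 to 23.9 CPM in the WT libraries and 42.6 to 64.5 CPM in the cKO libraries, while the Ifi206 segment is highest in WT replicate 2.

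Ifi209, also named Pyhin1, lies next to Ifi208, and both are on the + strand. Ifi209 was at 120, 111 and 108 CPM in WT and at 139, 149 and 139 CPM in cKO. All 3 cKO libraries were above all 3 WT libraries, and the spread within each group was small. The group means were 113 ± 6.28 CPM (SD, n = 3) in WT and 143 ± 5.86 CPM (SD, n = 3) in cKO. The log2 fold change was 0.33 (SE 0.13, 95% interval 0.04 to 0.62) with an unadjusted p of 0.0325 in edgeR's quasi-likelihood test, and 0.32 without WT replicate 2. The adjusted p was 0.984, so the difference did not pass the test over all genes. By exact permutation of the library labels (two-sided), p = 0.1, and 3 libraries against 3 allow no smaller value. The same permutation p of 0.1 was reached by Ifi213 and, with cKO lower, by Mndal. Ifi214, the paralog with the promoter closest to that of Ifi209, was at 5.69, 1.46 and 5.99 CPM in WT. In cKO it was at 4.22, 6.25 and 6.67 CPM. Its lowest value was in WT replicate 2, and the other libraries of both groups overlapped. The log2 fold change of Ifi214 was 0.38 (SE 0.62) with all libraries and -0.03 without WT replicate 2, so that 1 library decided its sign. Both adjusted p-values from edgeR were above 0.98. Of the 150-base windows in Ifi209 transcripts, 9.28% were also present in Ifi214, and reads from them could be divided between these genes.

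Aim2, the DNA receptor of the inflammasome, hardly varied. It was at 66.5, 61.0 and 64.5 CPM in WT and at 61.0, 56.0 and 63.1 CPM in cKO, and the groups overlapped. The log2 fold change was -0.09 (SE 0.13, 95% interval -0.39 to 0.21), with an adjusted p of 0.984 from edgeR, and -0.13 without WT replicate 2. Aim2 overlaps Cadm3 on the opposite strand, and the sources used here do not say whether counting used the strand.

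Ifi203 and Mndal were the most abundant genes of the cluster by CPM. Ifi203 was at 225, 241 and 239 CPM in WT and at 234, 226 and 207 CPM in cKO, with overlapping groups and a log2 fold change of -0.08 (SE 0.13, 95% interval -0.39 to 0.23). Mndal was at 174, 176 and 183 CPM in WT and at 171, 168 and 150 CPM in cKO. All 3 cKO libraries of Mndal were below the WT libraries, and the nearest values, 171 and 174 CPM, were close. Its log2 fold change was -0.12 (SE 0.13, 95% interval -0.43 to 0.18). Without WT replicate 2 the values were -0.06 for Ifi203 and -0.13 for Mndal, and the adjusted p from edgeR was 0.984 for both with all libraries. Mndal overlaps Ifi203 and Ifi211 on the same strand in GENCODE vM21, so reads could be divided among these genes, and their separate values are uncertain. The sum of Ifi203 and Mndal was 412 ± 12.6 CPM (SD, n = 3) in WT and 385 ± 25.3 CPM (SD, n = 3) in cKO.

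The remaining members were low and variable. Ifi204, which encodes p204, was at 2.15, 13.3 and 0.938 CPM in WT and at 0.789, 2.88 and 3.20 CPM in cKO. WT replicate 2 was far above the other libraries, and the fitted log2 fold change was -1.25 (SE 1.04) with it and 0.57 without it. Ifi207 was at 0.526, 0 and 3.23 CPM in WT and at 0.742, 3.60 and 5.43 CPM in cKO, which correspond to 11, 0 and 62 counts in WT and 16, 75 and 122 in cKO. The groups overlapped, and the log2 fold change was 1.38 (SE 1.49) with all libraries and 0.81 without WT replicate 2. Both genes had an adjusted p of 0.984 in edgeR.

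**Figure D2:**
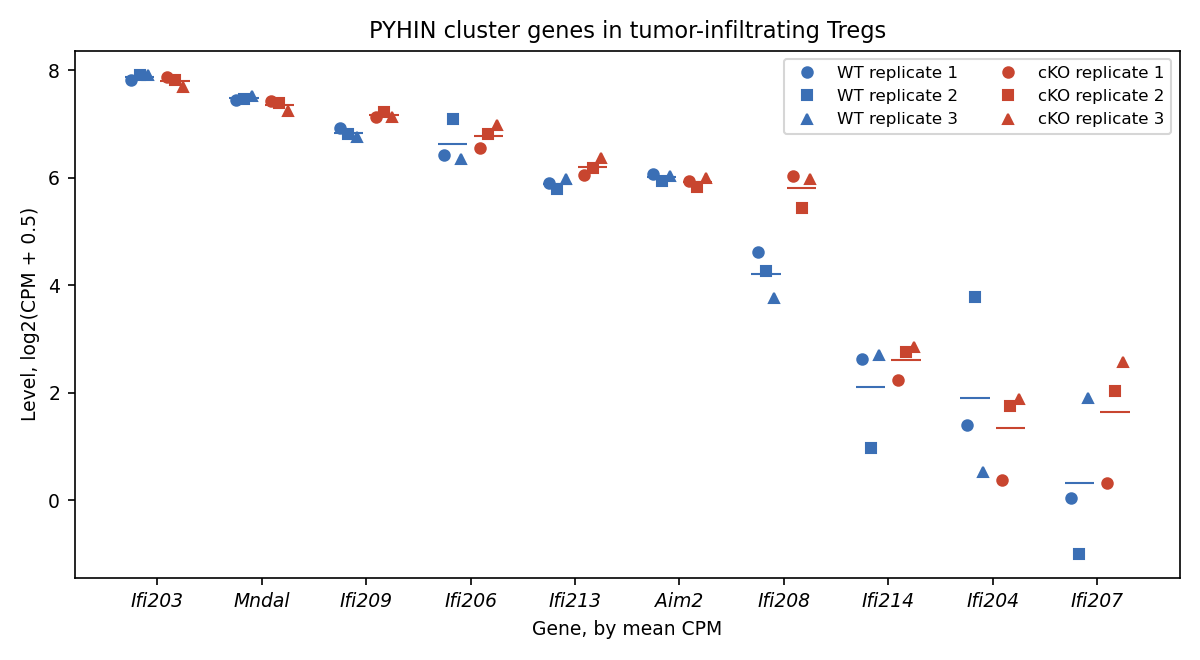
Each point is 1 library, the y axis is log2(CPM + 0.5), the genes are ordered by mean CPM, and the short lines are the means of the 3 libraries of a group on that scale. WT and cKO are apart for Ifi208, near to each other for Ifi203, Mndal and Aim2, and scattered for Ifi214, Ifi204 and Ifi207, where WT replicate 2 is at an extreme.

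Across the cluster, 6 of the 10 genes were fitted higher in cKO and 4 lower. The median log2 fold change was 0.22, or 0.29 without WT replicate 2. Ifi208, selected for its difference, is in this count and this median, and the 4 lower genes were all among the other 9. For these 9 genes the median was 0.13, the value of Ifi206. Without WT replicate 2 it was 0.27, the value of Ifi213. Over all genes tested, 8343 were higher and 6972 lower, with a median of 0.04, or -0.01 without that library. None of the 9 genes other than Ifi208 passed an adjusted p of 0.05 with edgeR or with DESeq2, where 0% of all genes passed with edgeR. An unadjusted p under 0.05 was reached by 1 of the 9 with edgeR, Ifi209, and 0.94% of all genes reached it in the higher direction. The groups did not overlap, with cKO higher, in 2 of the 9, Ifi209 and Ifi213, against 5.01% of all genes, and with cKO lower in 1 of the 9, Mndal, against 3.23%. Without WT replicate 2, Ifi206 had an unadjusted p of 0.0338 and Ifi209 one of 0.0434 in edgeR, with adjusted p-values of 0.997. Both were higher in cKO. In that fit, 232 of 15302 genes were higher and 229 lower at an unadjusted p under 0.05.

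**Figure D3:**
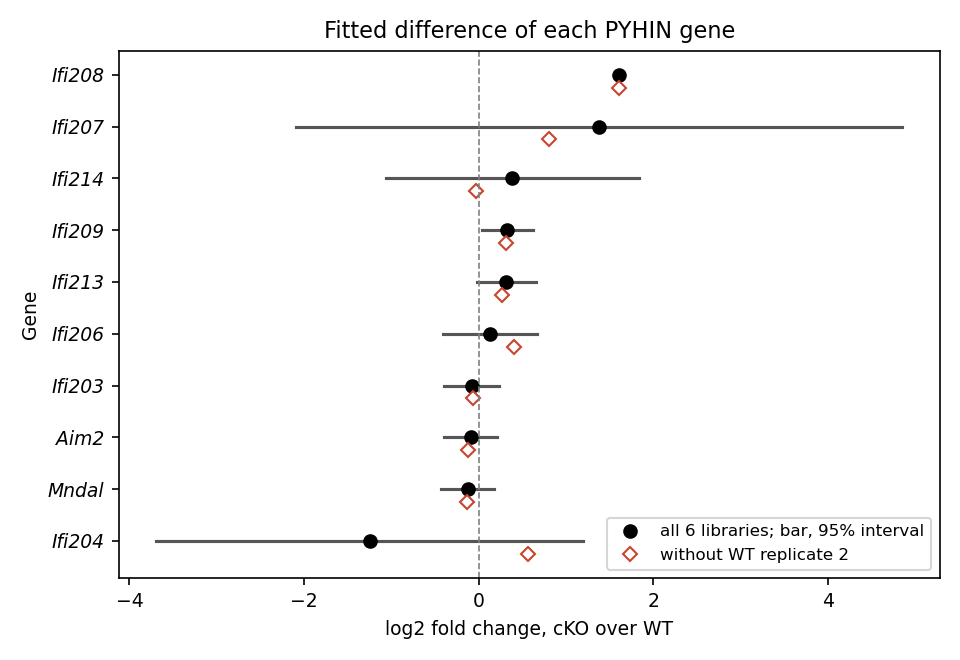
The x axis is the fitted log2 fold change of cKO over WT. Black points are the values with all 6 libraries, bars are 95% intervals, drawn for the 9 genes other than Ifi208, and open diamonds are the values without WT replicate 2. Ifi208 is at 1.60 in both fits, and Ifi204 and Ifi214 change sign between them.

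The summed level of the 10 genes was 762, 813 and 761 CPM in WT and 833, 838 and 844 CPM in cKO, and the groups did not overlap. The log2 ratio of the means was 0.11, 0.14 without WT replicate 2, and 0.04 when CPM were scaled by library size only. With that scaling the sums were 734, 893 and 768 CPM in WT and 865, 780 and 820 CPM in cKO, the groups overlapped, and WT replicate 2 was highest. The difference between the means was 59.7 CPM, and that of Ifi208 alone was 37.8 CPM. These differences were 76.9 and 37.9 CPM without WT replicate 2. Without Ifi208, the other 9 genes summed to 760 ± 30.1 CPM (SD, n = 3) in WT and 782 ± 13.4 CPM (SD, n = 3) in cKO, and the groups overlapped through WT replicate 2 alone, at 795 CPM. The log2 ratio of the means of these 9 genes was 0.041 with that library and 0.074 without it.

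Per kb of exon, which allows genes to be compared, the levels spanned a wide range. In WT Tregs, Mndal was highest with 49.0 ± 1.42 CPM per kb (SD, n = 3). Ifi203 with 35.01 ± 1.32, Ifi206 with 33.0 ± 9.91 and Ifi209 with 32.0 ± 1.77 CPM per kb came next and were not separated beyond the spread of Ifi206. They were followed by Aim2 with 18.3 ± 0.806, Ifi213 with 8.60 ± 0.524 and Ifi208 with 3.54 ± 1.03 CPM per kb, which were separated by more than their SDs. Ifi204, Ifi214 and Ifi207 were at 1.53 ± 1.91, 0.540 ± 0.313 and 0.366 ± 0.507 CPM per kb and could not be ordered, and the spread of Ifi204 reached the level of Ifi208. In cKO Tregs, Ifi208 was at 10.7 ± 2.29 CPM per kb and Ifi213 at 10.7 ± 1.24 CPM per kb (both SD, n = 3). The pair thus stood apart in WT and side by side in cKO, below Aim2 with 17.2 ± 1.04 CPM per kb. These levels used the union of annotated exons as the length and would be higher for a gene read mainly as a short isoform.

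By position, Ifi208 lies between Ifi209 and Ifi207. Of the other PYHIN genes at the locus, Ifi211 and Ifi205 were among the genes with deposited counts, and Ifi202b was absent from them. Ifi211 was at 7.84, 0 and 4.48 CPM in WT and at 5.15, 5.24 and 2.80 CPM in cKO, and it was listed at 0 in WT replicate 2 alone. Its log2 fold change was 0.10 (SE 1.34), and -0.49 without that library. Ifi205 was at no more than 0.625 CPM in any library. Of the 150-base windows in Ifi211 transcripts, 46.4% were also present in another gene, mostly in Ifi205, so the level of Ifi211 is uncertain. The nearest measured gene outside the family on the side of Aim2 was Crp, which was at 0.0956, 0 and 0.261 CPM in WT and at 0 in all 3 cKO libraries. Of the 12 genes measured within 1 Mb of the cluster, 9 were fitted higher in cKO and 3 lower, and none passed the adjusted p of 0.05 in edgeR or had an unadjusted p under 0.05. Their median log2 fold change was 0.41, and 0.09 without WT replicate 2.

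**Figure D4:**
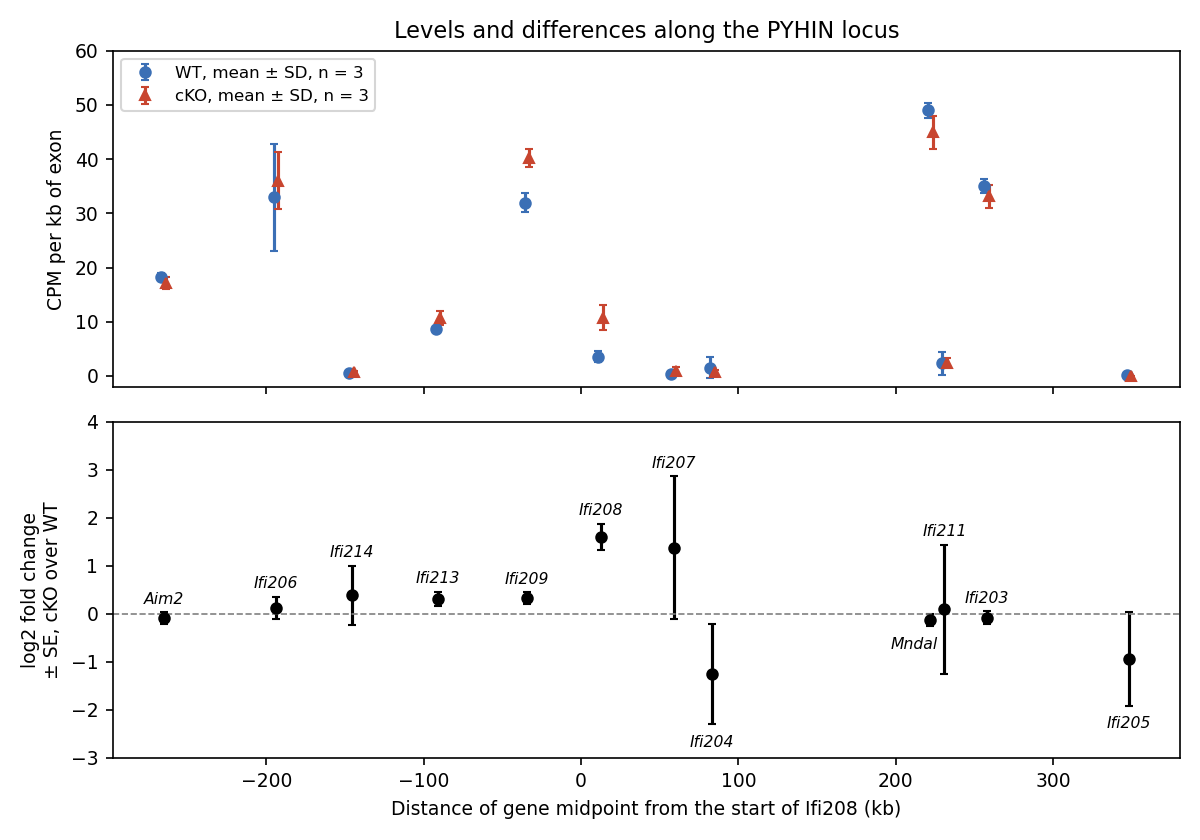
The x axis of both panels is the distance of a gene's midpoint from the start of Ifi208 in kb. The upper panel gives CPM per kb of exon as mean ± SD of the 3 WT (circles) and 3 cKO (triangles) libraries, and the lower panel the fitted log2 fold change ± SE. Ifi208 is at 1.60 ± 0.27, and the neighbours on each side, Ifi209 and Ifi207, are at 0.33 ± 0.13 and 1.38 ± 1.49.

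The genes that act with or upstream of the family were described from fixed lists. None of the genes of these lists passed an adjusted p of 0.05 in edgeR. Of the 11 AIM2 inflammasome partners, 7 were fitted higher in cKO and 4 lower, none with an unadjusted p under 0.05, with a median log2 fold change of 0.09. With WT replicate 2 left out, 4 were higher and 7 lower, with a median of -0.09. Pycard, which encodes ASC, was at 186, 100.01 and 172 CPM in WT and at 117, 192 and 176 CPM in cKO, with overlapping groups. Casp8, an initiator caspase that ASC can also recruit, was at 118 ± 40.5 CPM in WT and 96.9 ± 10.1 CPM in cKO (SD, n = 3). Gsdmd, the pore-forming substrate of inflammatory caspases, was at 91.2 ± 8.50 CPM in WT and 81.2 ± 5.43 CPM in cKO (SD, n = 3).

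Of 17 genes of interferon signaling, the receptors, kinases and transcription factors upstream of the ISRE, 6 were fitted higher and 11 lower, none with an unadjusted p under 0.05 in edgeR. The median log2 fold change was -0.04. With WT replicate 2 left out, 11 were higher and 6 lower, with a median of 0.01. Ifngr1, a chain of the interferon-gamma receptor, was at 1076 ± 111 CPM in WT and 1157 ± 93.3 CPM in cKO (SD, n = 3), and the kinase gene Jak1 was at 518 ± 62.5 and 595 ± 39.7 CPM, in the same order. Of 12 measured genes of cytosolic DNA sensing, 9 were fitted higher and 3 lower, none with an unadjusted p under 0.05. The median was 0.21, and 0.03 without WT replicate 2. Tmem173, which encodes STING, was at 190 ± 51.8 CPM in WT and 213 ± 5.12 CPM in cKO. Samhd1, a dNTP hydrolase, was at 467 ± 69.5 and 531 ± 43.4 CPM, and the kinase gene Ikbke was at 144 ± 38.1 and 129 ± 18.9 CPM.

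Other interferon-stimulated genes were compared because Ifi208 belongs to that class. Of 38 measured, 28 were fitted higher in cKO and 10 lower, beside 8343 higher and 6972 lower over all genes tested. With WT replicate 2 left out, 24 of the 38 were higher and 14 lower. An unadjusted p under 0.05 in edgeR in the higher direction was reached by 2 of the 38, against 0.94% of all genes. They were Ifit2 and Slfn1, named after their values were seen. The 38 log2 fold changes had a median of 0.26, and of 0.10 without WT replicate 2. The summed level of the list was lowest in WT replicate 2, at 1774 CPM, against 2287 to 3091 CPM in the other libraries. Among the most abundant, Ifi27l2a was at 880, 267 and 494 CPM in WT and at 489, 852 and 638 CPM in cKO, Sp100 was at 218 ± 16.2 and 269 ± 27.2 CPM (SD, n = 3), and Ifi47, an interferon-inducible GTPase, was at 141 ± 53.2 and 189 ± 22.9 CPM. The log2 fold changes of these 3 genes were 0.27 (SE 0.42), 0.30 (SE 0.15) and 0.43 (SE 0.29) with all libraries and -0.06, 0.26 and 0.14 without WT replicate 2, which turned the sign of Ifi27l2a.

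PYHIN genes are also expressed in macrophages and other myeloid cells, so markers of other cell types are given beside the members. Of 20 macrophage and dendritic cell markers, 16 were fitted higher in cKO and 4 lower, none with an unadjusted p under 0.05 in edgeR. Their median log2 fold change was 0.85, and 0.83 without WT replicate 2. Their summed level was 667, 1268 and 1231 CPM in WT and 665, 1281 and 1928 CPM in cKO, with 7 markers at 0 in WT replicate 2, at most 3 in any other library and none in cKO replicate 3. The most abundant were Cd74, shared with B cells, at 477 ± 50.0 and 597 ± 185 CPM (SD, n = 3), Lyz2 at 368 ± 207 and 373 ± 232 CPM, and C1qb at 27.0 ± 18.0 and 62.4 ± 47.6 CPM in WT and cKO. Csf1r, a defining receptor of macrophages chosen after its values were seen, was at 6.21, 32.9 and 37.0 CPM in WT and at 8.72, 39.4 and 85.7 CPM in cKO. Its log2 fold change was 0.82 (SE 0.85). Cd68 and Marco, also named after their values were seen, were among the 4 fitted lower, at -0.67 (SE 0.75) and -1.25 (SE 1.28). Without WT replicate 2 the values were 1.06 for Csf1r, 0.38 for Cd68 and -1.15 for Marco. The part of these cells in the values of Ifi208 and the other PYHIN genes was not tested.

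**Figure D5:**
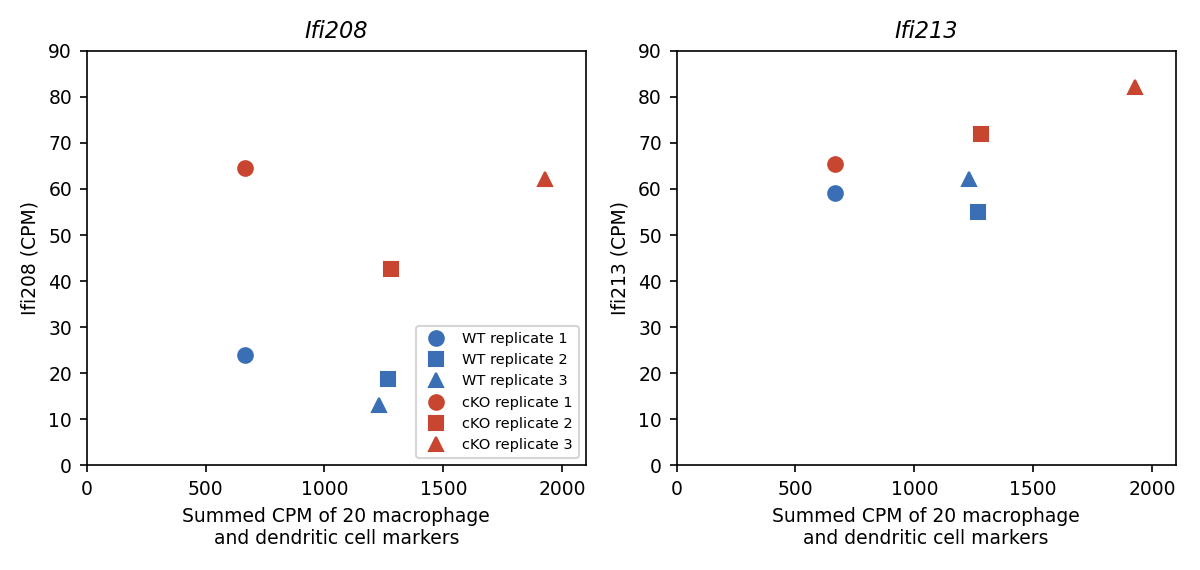
Each point is 1 library, the x axis is the summed CPM of the 20 macrophage and dendritic cell markers, and the y axis is the CPM of Ifi208 (left) or Ifi213 (right). The marker sum runs from 667 to 1268 CPM in WT and from 665 to 1928 CPM in cKO. Replicate 3 of cKO has the highest sum and the highest Ifi213 level. Replicate 1 of cKO has the lowest sum, 665 CPM, and the highest Ifi208 level, 64.5 CPM. In WT replicate 1 these are 667 and 23.9 CPM.

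The other cell type lists were low beside the Treg markers, of which 3 of 9 were fitted higher and 6 lower, with a median of -0.14, and -0.17 without WT replicate 2. The most abundant Treg markers were Tnfrsf4, at 2215 ± 750 CPM in WT and 1821 ± 137 CPM in cKO, Ctla4, at 1302 ± 81.3 and 1076 ± 184 CPM, and Cd3e, at 923 ± 151 and 1035 ± 94.7 CPM (SD, n = 3). The summed levels were 11.5 to 20.5 CPM for 9 neutrophil markers, 14.3 to 56.1 CPM for 7 B cell markers, 5.26 to 29.0 CPM for 6 CD8 T and NK cell markers and 38.6 to 105 CPM for 8 epithelial and tumor cell markers. Of the neutrophil markers 7 were fitted higher and 2 lower, with a median log2 fold change of 0.33. Without WT replicate 2, 6 of the neutrophil markers were higher and 3 lower, with a median of 1.13. The most abundant were Cxcr2, at 9.17 ± 1.47 CPM in WT and 6.12 ± 1.56 CPM in cKO, S100a8, at 3.47 ± 3.38 and 4.36 ± 0.925 CPM, and Csf3r, at 3.45 ± 1.32 and 3.25 ± 1.17 CPM (SD, n = 3). An unadjusted p under 0.05 in the higher direction was reached by 3 of the 9, S100a9, Retnlg and Ngp, at levels of at most 1.91 CPM, against 0.94% of all genes. The B cell sum was 16.4, 28.7 and 27.6 CPM in WT and 14.3, 36.3 and 56.1 CPM in cKO, with 6 markers fitted higher, 1 of them, Pax5, with an unadjusted p under 0.05, and 1 lower. These 4 genes were named after their values were seen. The B cell markers had a median log2 fold change of 0.78. Without WT replicate 2 this median was 0.97, with 7 B cell markers higher and 0 lower. Of the CD8 T and NK cell markers, all 6 were fitted higher with all libraries and 3 of 6 without WT replicate 2, and of the epithelial and tumor cell markers, 5 of 8 with all libraries and 1 of 8 without it. The parts of these cells in the PYHIN values were not tested.

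The genes whose pattern over the 6 libraries was most like that of Ifi208 were found by Pearson's r of log2(CPM + 0.5) among 9639 genes with a mean of at least 5 CPM. They were Qrich1 (r = 0.976), Parg (0.972), Ubr7 (0.962), Thoc3 (0.955) and Ubash3a (0.950). Each differed between the groups by far less than Ifi208. Parg, which encodes the enzyme that degrades poly(ADP-ribose), was at 42.3, 40.8 and 41.1 CPM in WT and at 50.4, 46.7 and 48.8 CPM in cKO. Ubash3a, an inhibitor of T cell receptor signaling, was at 165, 155 and 150 CPM in WT and at 182, 170 and 172 CPM in cKO. Within the cluster, r with Ifi208 was 0.908 for Ifi209, 0.726 for Ifi213, 0.293 for Ifi206, -0.382 for Aim2, -0.621 for Ifi203 and -0.781 for Mndal. These values describe 6 points from 2 groups that differ in Ifi208.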

How the data were processed

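Tumor-infiltrating Tregs were profiled by RNA-Seq (3 libraries from each group). Deposited by the authors were expected counts (estimated counts) per gene symbol, not normalized, from 150-base paired-end reads and GRCm38; per the submitters' processing notes the tools included Bowtie2 (version 2.3.4.3) and RSEM (version 1.3.1). The counting annotation and strand setting were not given in the sources used here. Of the values, 21.65% were not whole (tolerance 1e-06), and all were rounded before testing. Replicates differed by more than sampling noise, and each was 1 sample.

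Genes with at least 1 count (15315) were tested with edgeR (version 4.0.16; R version 4.3.3), quasi-likelihood F test, TMM scaling, Benjamini-Hochberg adjustment over all of them. Standard errors were the log2 fold change over the root of F. Alternatives were DESeq2 (version 1.42.0), other scalings, filterByExpr (minimum count 10), limma (version 3.58.1) with voomWithQualityWeights, the replicate number as a block, and each library left out. The fitting was tested on simulated data. Exact permutation tests used scipy (version 1.17.1), and promoters were aligned with Biopython (version 1.88).

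The members and lists were chosen with earlier results of these data known. The genes named were the 10 members, other PYHIN genes of the locus, the 5 genes most like Ifi208, the nearest measured gene on each side, and the 3 most abundant genes of each other list. Some genes of this rule are not reported here. Positions and transcripts came from GENCODE vM21, and promoters from RefSeq GRCm38.p6. No protein sequences were used here.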

Additional observations from a re-analysis of the deposited data

How the results depend on the processing

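In 13 alternatives for each of the 9 genes other than Ifi208, 112 of 117 fitted values kept the sign and the side of the threshold they had with all libraries in edgeR. Ifi208, for which no test is given, was higher in cKO in all 13. It was selected for this difference and its groups did not overlap, so the kept sign lends it no support. Ifi204 changed sign, at 0.57 without WT replicate 2 with edgeR and 0.57 with DESeq2 and at 0.72 with voomWithQualityWeights. Ifi214 also did, at -0.030 without WT replicate 2 with edgeR and -0.033 with DESeq2. Leaving out each library in turn gave 1.40 to 1.82 for Ifi208, 0.30 to 0.38 for Ifi209, 0.22 to 0.39 for Ifi213, 0.00 to 0.40 for Ifi206, 0.79 to 3.61 for Ifi207, -1.73 to 0.57 for Ifi204, -0.03 to 0.68 for Ifi214, and 0 to 1 genes called over the whole table. The widest value of Ifi207 came without WT replicate 3. DESeq2 called 2 genes over the whole table, edgeR called 1 without WT replicate 2, and DESeq2 called 3 without it. With library size only, the log2 ratio of the summed CPM was 0.041. Without WT replicate 2, the list medians changed sign for the AIM2 inflammasome partners (-0.092), interferon signaling (0.012), CD8 T and NK cell markers (-0.023) and epithelial and tumor cell markers (-0.27). The cause was not tested.

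Genes with an unadjusted p under 0.05 numbered 144 higher and 133 lower with all libraries in edgeR, 95 and 212 with DESeq2, 39 and 101 after filterByExpr, 262 and 281 with voomWithQualityWeights, 232 and 229 without WT replicate 2, 273 and 601 without WT replicate 1, 287 and 288 without WT replicate 3, and 96 and 88, 51 and 21, and 45 and 20 without cKO replicates 1, 2 and 3. Of the 9 members other than Ifi208, 0 to 2 had such a p under any alternative, and Ifi209 lost it without WT replicate 3, without any 1 of the cKO libraries, under library size only and under the block. With the replicate number as a block (replicate block) 6 members were higher and the median was 0.23, both with Ifi208 included. Under this block 0 genes were called, with 39 higher and 46 lower at an unadjusted p under 0.05. Same-numbered libraries deviated together with correlations of 0.114, -0.0941 and 0.211, so the samples were taken to share only a number, and 3 of the 6 libraries did not correlate best with their own number in the other group. With 3 libraries a group, the interval of Ifi207 or Ifi204 covers changes in both directions.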

Other observations

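The 10 letters of the Ifi208 core, GAAATCGAAA, were also present in promoters of 9 genes outside the PYHIN family. Of these, 5 were among the genes with deposited counts, and the others were absent from them. They were looked up after the values of the cluster were seen. Ddx58, which encodes the RNA sensor RIG-I, was at 53.4, 39.7 and 47.8 CPM in WT and at 53.8, 54.1 and 57.7 CPM in cKO. Ripk1, a kinase of cell death and inflammatory signaling, was at 49.9, 16.3 and 50.0 CPM in WT and at 62.5, 59.1 and 64.2 CPM in cKO, with its lowest value in WT replicate 2. The log2 fold changes were 0.23 (SE 0.16) for Ddx58, 0.68 (SE 0.39) for Ripk1, -0.15 (SE 0.30) for Parp11, -0.09 (SE 0.28) for Pnrc1 and -0.20 (SE 0.23) for Serpinb6a. Without WT replicate 2 they were 0.12, 0.31, 0.02, 0.22 and -0.29, in the same order. None of the 5 had an unadjusted p under 0.05 in edgeR's quasi-likelihood test, and all adjusted p-values were 0.984.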
